A study of Saccharomyces cerevisiae with 28 samples.

Results

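The step between high and middle glucose in budding yeast (Saccharomyces cerevisiae) strain YL388 was described from 6 of the 28 samples of the series, chosen by strain and glucose concentration as labelled. The middle glucose group held 1 RNA sequencing library each at 0.05, 0.075 and 0.1% glucose. The high glucose group held 1 library each at 0.15, 0.2 and 0.4%. All 6 cultures were grown in synthetic minimal medium with 0.2% glucose and then diluted and kept for 2 h at the stated concentration, so the high group contains the concentration of the preculture. No drug or stress agent was named for these cultures, and the labels give YL388 by number without a genotype. The 3 libraries of a group are neighbouring concentrations, not repeated cultures, so the spread within a group includes any trend along it.

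Budding yeast ferments glucose and senses its level outside and inside the cell. The sensors Snf3 and Rgt2 act through casein kinase on Mth1 and Std1, the corepressors of Rgt1, which shuts hexose transporter genes when glucose is scarce. The kinase Snf1 inactivates the repressor Mig1 as glucose falls, and low protein kinase A activity lets Msn2 and Msn4 switch on genes of stress defence and carbohydrate storage.

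The upstream DNA of 3 genes that carried the largest well-measured differences is shown first. Each window comes from the R64 genome, is read on the strand of its gene and ends 201 bases before the coding start. It begins 500 bases before that start for HXT3 and TMA10, and 320 bases before it for INO1. HXT3, a low-affinity hexose transporter, lies at chrIV:1162957-1164660 on the minus strand and its window at chrIV:1164861-1165160, with CGGANNA, the letters of Rgt1, in capitals on either strand. INO1, inositol-3-phosphate synthase, lies at chrX:134332-135933 on the minus strand and its window at chrX:136134-136253, with CATGTG, the core of the inositol-responsive element, in capitals. TMA10, a small ribosome-associated protein, lies at chrXII:783127-783387 on the minus strand and its window at chrXII:783588-783887, with the stress response element AGGGG, here on the opposite strand, in capitals.
HXT3: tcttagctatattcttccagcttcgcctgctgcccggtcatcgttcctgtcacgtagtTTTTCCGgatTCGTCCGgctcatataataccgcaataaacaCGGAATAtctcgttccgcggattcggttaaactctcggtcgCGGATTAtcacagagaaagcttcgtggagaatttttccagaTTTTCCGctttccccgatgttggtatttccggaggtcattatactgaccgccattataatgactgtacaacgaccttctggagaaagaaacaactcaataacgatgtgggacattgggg
INO1: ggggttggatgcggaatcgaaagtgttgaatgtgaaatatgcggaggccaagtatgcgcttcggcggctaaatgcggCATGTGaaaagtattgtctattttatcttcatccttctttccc
TMA10: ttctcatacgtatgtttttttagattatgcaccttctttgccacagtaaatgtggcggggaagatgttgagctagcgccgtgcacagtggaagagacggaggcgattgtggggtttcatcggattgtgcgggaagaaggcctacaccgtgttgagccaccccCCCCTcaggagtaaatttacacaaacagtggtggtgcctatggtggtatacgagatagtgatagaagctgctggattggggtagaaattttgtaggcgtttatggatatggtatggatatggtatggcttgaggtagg
The HXT3 and TMA10 windows overlap no coding gene in the files, and the INO1 window overlaps the start of the reading frame YJL152W, which the RefSeq annotation does not list. The HXT3 window holds 5 matches, the INO1 window 1 and the TMA10 window 1.

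Each library gave an FPKM value (fragments per kilobase of gene per 1e6 mapped fragments) for 6692 gene identifiers, and 446 of them were listed at 0 in all 6. The confidence bounds beside the values implied 6.71 to 8.17 M fragments (M, 1e6) in the middle libraries and 5.92 to 7.76 M in the high libraries, with the fewest at 0.15%. On log2(FPKM + 1), the first principal component (39.0% of the variance) ordered the 6 libraries by glucose. The second (21.2%) set the 0.15% library apart from the others, with a loading of 0.84 against -0.46 to 0.04 for the other 5 libraries. Of the markers that tell haploid cell types apart, the a-specific pheromone gene MFA1 had 63278 to 77655 FPKM in the middle libraries and 80316 to 104050.0 FPKM in the high libraries, while the alpha-specific receptor gene STE3, which overlaps another gene, had 6.81 to 7.53 and 6.01 to 7.41 FPKM. The libraries thus carried the markers of a cells.

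The middle and high groups differed by small amounts. Over the 6106 genes that averaged 1 FPKM or more in the 6 libraries, the median difference (middle minus high) was 0.06 on the log2 scale and the median absolute difference was 0.089, against a median spread within groups of 0.089. No gene passed an adjusted p of 0.05 in limma's test of middle against high (0% of genes, smallest adjusted p 0.252). Without adjustment, 959 genes had a p under 0.05, 779 higher and 180 lower at middle glucose. All 3 middle libraries lay above all 3 high libraries for 18.6% of genes and below them for 4.73%. These shares move with the scaling, since 1137 higher and 289 lower genes became 592 and 603 after median-of-ratios scaling and 518 and 565 after quantile normalization.

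A straight line over log2 glucose through the same 6 libraries uses the order of the concentrations and called more genes. By limma at an adjusted p of 0.05, 180 genes (2.95%) rose towards 0.05% glucose and 43 (0.704%) fell. Below, "rose" and "fell" refer to this line, and its change is the fitted difference of 0.05% minus 0.4%, ± its standard error, on log2(FPKM + 1), which is compressed for weakly expressed genes. The calls rest on the full set of 6 libraries: the counts were 88 up and 18 down without the 0.1% library, 59 and 13 without the 0.15% library, 2 and 0 without 0.05%, 1 and 0 without 0.4%, and none without 0.075% or without 0.2%. The split between directions became 55 up and 52 down under median-of-ratios scaling and 63 and 52 under quantile normalization, and 80 of the 223 called genes were called under both. Of 95 called genes that the naming rule or the lists picked out, 43 missed the threshold under median-of-ratios scaling, with adjusted p of 0.0521 to 0.158. Without the intensity trend in the variance, 7 genes rose and none fell. Of the called genes, 155 that rose and 37 that fell also had groups that did not overlap.

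**Figure D1:**
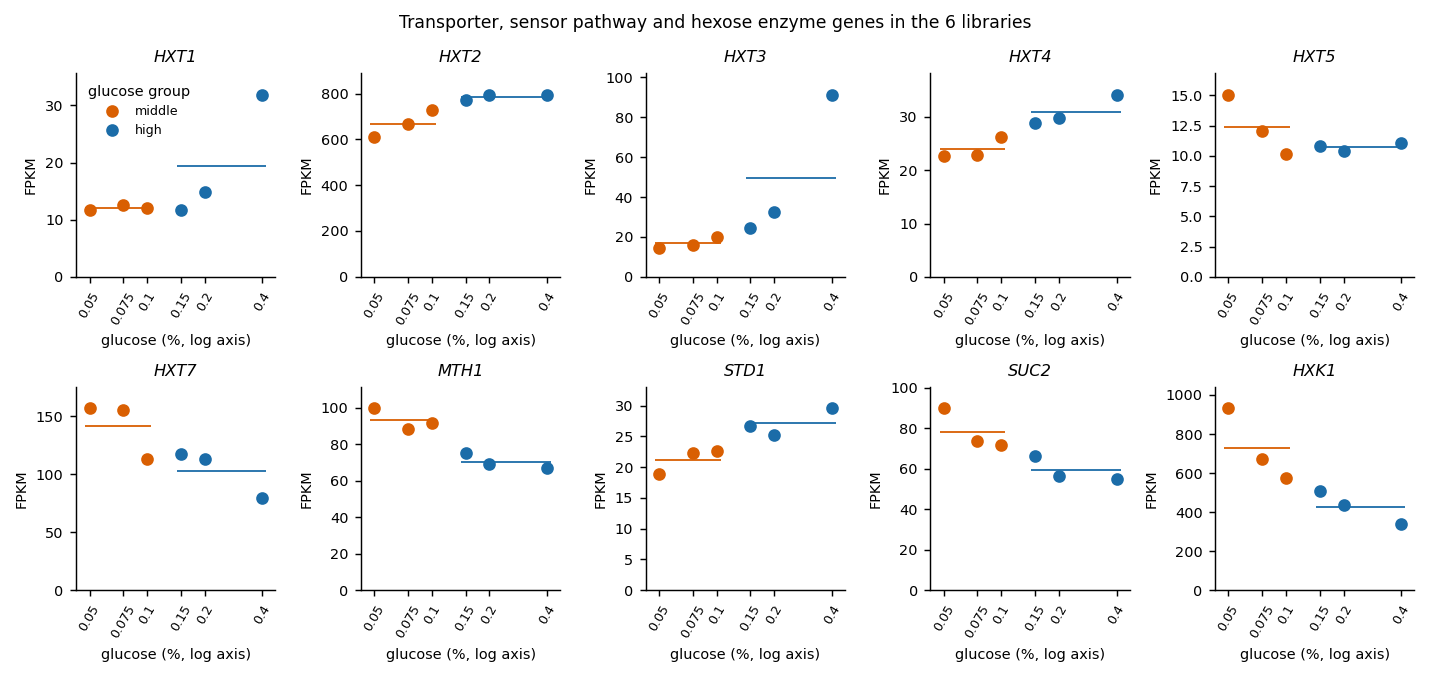
FPKM (y axes, from 0) of 10 genes against glucose concentration (x axes, log scale) in the 3 middle (orange) and 3 high (blue) libraries of YL388; each point is 1 library and each bar the mean of a group. HXT3 stands at 14.5 to 19.7 FPKM in the middle libraries and at 24.4 to 91.1 FPKM in the high libraries, while SUC2 and HXK1 are higher in every middle library than in every high library.

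Among hexose transporters, HXT3 had the widest range on the log2 scale over the 6 libraries. It had 14.5, 15.9 and 19.7 FPKM at 0.05, 0.075 and 0.1% glucose, against 24.4, 32.6 and 91.1 FPKM at 0.15, 0.2 and 0.4%. Every middle library was below every high library, and most of the difference lay between 0.4% and 0.2%, inside the high group. Its group difference was -1.28 ± 0.47 (SE, log2; adjusted p = 0.286), while its line fell by 2.53 ± 0.32 (adjusted p = 0.0276). HXT1, the other low-affinity transporter, had 11.7, 12.6 and 12 FPKM in the middle libraries, against 11.6, 14.9 and 31.8 FPKM in the high libraries. Only the 0.4% library stood out for HXT1, the groups overlapped, and its line did not pass (-1.24 ± 0.35, adjusted p = 0.116).

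The transporters of higher affinity did not move as one. HXT4 had 22.6, 22.9 and 26.3 FPKM at middle glucose, against 28.9, 29.7 and 34.1 FPKM at high glucose, and fell on the line by 0.61 ± 0.08 (adjusted p = 0.0276). HXT2, the most abundant of the family, had 611, 669 and 726 FPKM against 772, 793 and 794 FPKM, with groups apart and a line of -0.39 ± 0.08 (adjusted p = 0.065). HXT7 went the other way, with 157, 156 and 113 FPKM at middle glucose and 117, 113 and 79.2 FPKM at high glucose, and rose on the line by 0.95 ± 0.15 (adjusted p = 0.035, and 0.0579 under median-of-ratios scaling). The HXT6 and HXT7 genes are 99.8% identical, so how reads were divided between them is uncertain. HXT6 was listed at 1.42 to 2.86 FPKM in the middle libraries and 0.69 to 1.22 FPKM in the high libraries. HXT5, a transporter of slow-growing cells, had 10.2 to 15 and 10.4 to 11 FPKM, and its groups overlapped. Of the 12 transporter and sensor genes tested, 1 rose and 2 fell on the line, beside 2.95% and 0.704% of all genes. The list's median difference was 0.04, near that of all genes, and -0.12 after quantile normalization.

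The Rgt1 corepressors moved apart. MTH1 had 99.6, 88.2 and 91.5 FPKM in the middle libraries, against 75.2, 69.2 and 67.0 FPKM in the high libraries, and rose by 0.61 ± 0.10 on the line (adjusted p = 0.0362). Its partner STD1 had 18.8, 22.3 and 22.6 FPKM against 26.8, 25.2 and 29.6 FPKM and fell by 0.59 ± 0.10 (adjusted p = 0.0431). Neither pair of groups overlapped. The sensor genes SNF3 and RGT2 were not called, with group differences of 0.32 ± 0.14 and -0.04 ± 0.09. All 3 glucose-phosphorylating enzymes other than hexokinase 2 rose: HXK1 by 1.40 ± 0.11 (adjusted p = 0.0122), EMI2 by 0.92 ± 0.11 (adjusted p = 0.0262) and GLK1 by 0.82 ± 0.14 (adjusted p = 0.0399). HXK1 had 932, 671 and 576 FPKM at middle glucose and 510.2, 435 and 339 FPKM at high glucose, and the 2 groups did not overlap. HXK1 and GLK1 overlap another gene in the files, and whether fragments were counted by strand is not given in the sources used here. HXK2, the main hexokinase at high glucose, had a group difference of 0.10 ± 0.04 and was not called.

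The regulator genes MSN2 and MIG1 were tested and not called. MSN2 had 43.1 to 43.7 FPKM in the middle libraries and 37.8 to 45.6 FPKM in the high libraries, and MIG1 had 96.3 to 103 and 90.4 to 98.9 FPKM. MSN4 stayed below the filter at 0.69 to 1.14 and 0.81 to 1.41 FPKM, and MIG2, NRG1 and NRG2 were listed at 0 throughout. These genes were not tested, and a 0 throughout does not tell an unexpressed gene from one that was not measured. USV1, a zinc finger factor of the glucose response, was the 1 member of the 31 signalling genes that rose. That count is near the 2.95% of all genes that rose. USV1 had 149, 128 and 112 FPKM against 101, 95 and 85.6 FPKM (line 0.79 ± 0.09, adjusted p = 0.0243).

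**Figure D2:**
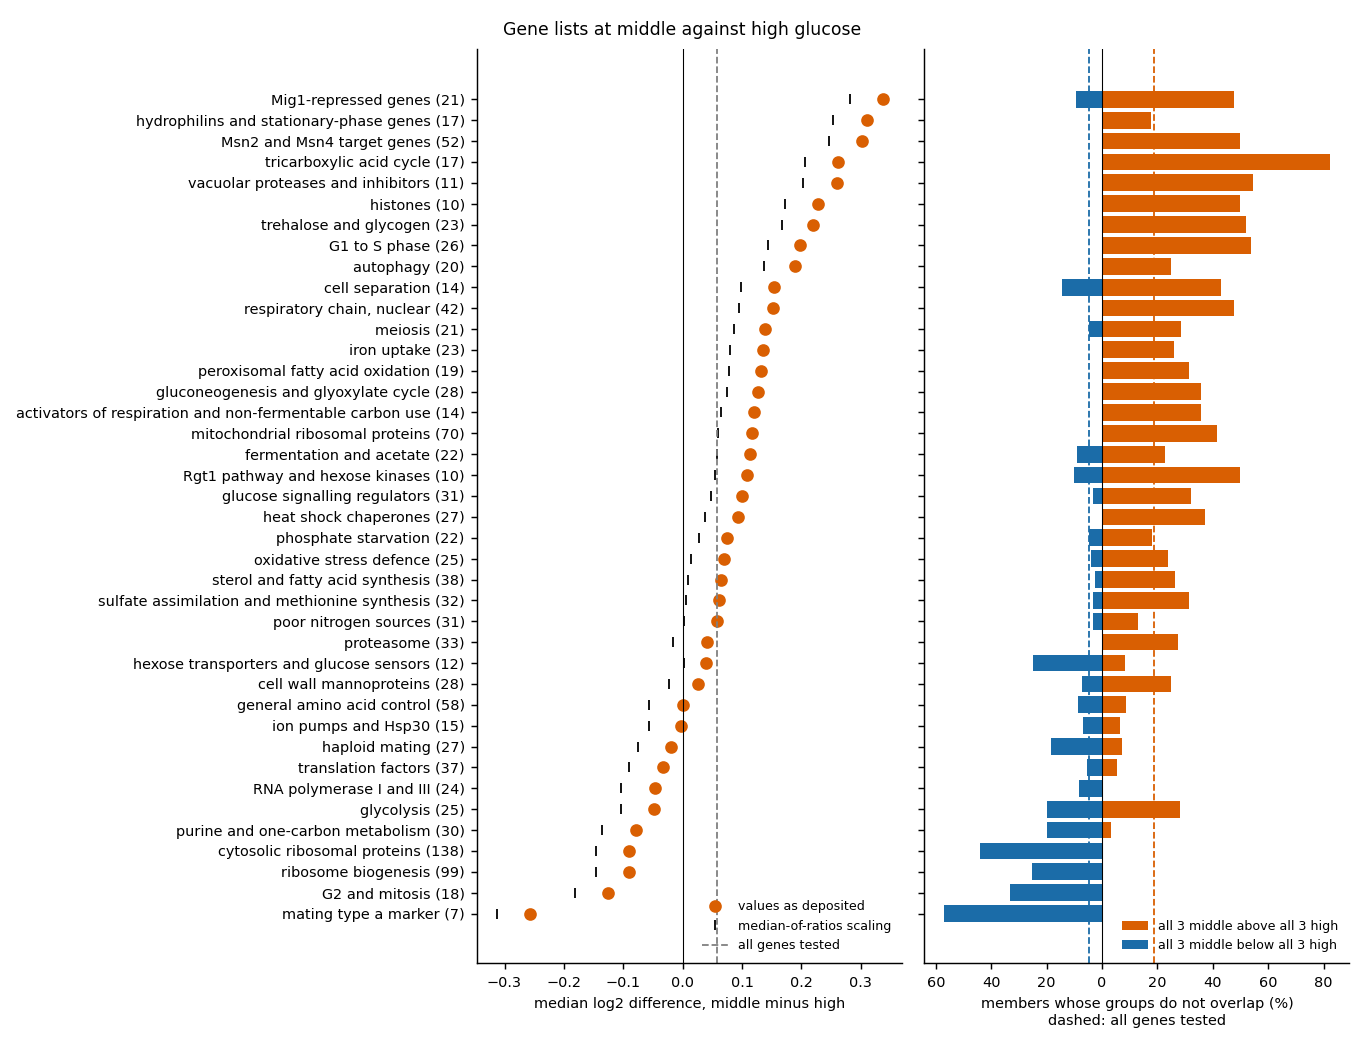
Median log2 difference of middle minus high (left; orange, values as deposited; black marks, median-of-ratios scaling) and the share of members whose middle libraries all lie above (orange) or all below (blue) the high libraries (right), for 40 gene lists with the number of genes tested in brackets. The tricarboxylic acid cycle has the largest share above, 14 of 17 genes, and the ribosomal protein and ribosome biogenesis lists lie below.

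Of 21 genes tested from a list of targets of Mig1 repression, 7 rose on the line and 1, HXT4, fell. In 10 of them all middle libraries were above all high libraries and in 2 below, and the median difference was 0.34, against 0.06 over all genes. The shares over all genes were 2.95% up and 0.704% down on the line, 18.6% above and 4.73% below. SUC2, the secreted invertase, had 89.9, 73.9 and 71.6 FPKM at middle glucose, against 66.3, 56.6 and 54.8 FPKM at high glucose. The groups did not overlap, and its line rose by 0.70 ± 0.10 (adjusted p = 0.0276). MAL33, the maltose gene activator, rose by 0.93 ± 0.13 (adjusted p = 0.0276), and GUT1 (glycerol kinase, 0.65) and MAL31 (maltose permease, 0.61) also rose. The lactate permease gene JEN1 had 20.7, 16.0 and 12.5 FPKM against 15.8, 11 and 8.47 FPKM, with overlapping groups, and did not pass (adjusted p = 0.0555).

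INO1 was higher at middle glucose by the most among genes above 0 in all 6 libraries, with a mean of at least 10 FPKM, no overlap and over 300 bp. It had 88.7, 55.0 and 44.4 FPKM in the middle libraries, against 26.8, 21.5 and 18.5 FPKM in the high libraries. The values increased at each drop in glucose, and the lowest middle library was above the highest high library. The group difference was 1.41 ± 0.27 (SE; adjusted p = 0.252), and the line rose by 2.29 ± 0.27 (adjusted p = 0.0262). INO1 was called in 8 of the 9 other settings and in 3 of the 6 fits that left out a library. OPI3, which makes phosphatidylcholine, also rose (0.70 ± 0.10, adjusted p = 0.0276), while CHO2, the enzyme before it, had 154 to 168 FPKM at middle and 147 to 169.5 FPKM at high glucose. Both INO1 and OPI3 belong to a list of 38 lipid genes in which they were the only line calls, and its median difference was 0.06.

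Among 52 targets of Msn2 and Msn4, 17 rose and none fell on the line, and 26 had all middle libraries above all high libraries with none below. Over all genes 2.95% rose on the line and 18.6% had all middle libraries above all high libraries. The median difference of the 52 targets was 0.30, and 51 of the 52 differences were above 0, against 4266 of the 6106 over all genes. Under median-of-ratios scaling 8 of them rose and 21 had groups apart. TMA10 had 2685, 2007 and 1488 FPKM at 0.05, 0.075 and 0.1% glucose, against 1214, 1069.6 and 717 FPKM at 0.15, 0.2 and 0.4%. It increased at each of the 5 drops in glucose and had the smallest adjusted p of all genes on the line, 0.00763, with a rise of 1.88 ± 0.10. Other members that rose were ALD4 (mitochondrial aldehyde dehydrogenase, 0.97), the protease gene YPS6 (0.87), HSP42 (0.74) and HSP26 (0.73), which encode small heat shock proteins, and the ubiquitin gene UBI4 (0.36). HSP42 and HSP26 missed the threshold under median-of-ratios scaling (adjusted p = 0.0524 and 0.0598).

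Several of the best known stress genes did not pass. HSP12, a membrane-stabilizing stress protein, had 20505, 15252 and 13703 FPKM in the middle libraries, against 14650.0, 14516 and 13693 FPKM in the high libraries. SIP18, a hydrophilin of dried cells, had 585, 295 and 193 FPKM against 219.8, 209 and 208 FPKM. In both genes only the 0.05% and 0.075% libraries were above all 3 high libraries, so the groups overlapped (line, adjusted p = 0.22 and 0.197). The catalase gene CTT1 had 71.0, 51.3 and 45.2 FPKM against 51.3, 46.2 and 49.0 FPKM, and only its 0.05% library was above all 3 high libraries.

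Genes of carbohydrate storage were higher as a list: all 23 trehalose and glycogen genes had a difference above 0, 12 had groups apart and 8 rose (median 0.22), of which 2 rose under median-of-ratios scaling. GLC3, the glycogen branching enzyme, had 43.4, 34.5 and 30.5 FPKM at middle glucose, against 28.1, 24.7 and 23.1 FPKM at high glucose (line 0.86 ± 0.12, adjusted p = 0.0276). The glycogen synthase genes GSY1 (0.75) and GSY2 (0.66) and the glycogen phosphorylase gene GPH1 (1.02, overlapping another gene) rose as well, so genes of synthesis and of breakdown moved the same way. The trehalose synthase gene TPS1 had 185 to 215 FPKM against 176 to 182 FPKM and was not called. Of 11 genes of vacuolar proteases and their inhibitors 4 rose, with PBI2, an inhibitor of protease B, first at 1.06 ± 0.10 (adjusted p = 0.0196). TFS1 (0.76), PEP4 (0.54) and PRC1 (0.46) followed, and 2 of the 4 rose under median-of-ratios scaling. None of 20 autophagy genes or 33 proteasome genes was called, with medians of 0.19 and 0.04, the second of which turned to -0.02 under median-of-ratios scaling. Over all genes 2.95% rose and 0.704% fell, so lists of this size would hold few or no calls at those shares.

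On the values as deposited, the tricarboxylic acid cycle had the largest share of members called. Of its 17 nuclear genes 9 rose, none fell, and 14 had all middle libraries above all high libraries. Over all genes 2.95% rose and 18.6% were above. After median-of-ratios scaling 14 of the 17 again had groups apart and 5 rose. The list of 10 Rgt1 pathway and hexose kinase genes then had a larger share called, with 3 up and 1 down. The 9 were SDH4, LSC2, SDH1, SDH3, KGD2, IDH1, FUM1, LPD1 and LSC1, with line changes of 0.42 to 0.71, and they include 3 subunits of succinate dehydrogenase and both subunits of succinyl-CoA ligase. SDH1 had 190.4, 159 and 147 FPKM at middle glucose, against 139.9, 124.7 and 116 FPKM at high glucose (line 0.69 ± 0.08, adjusted p = 0.0262). Citrate synthase CIT1 had 252 to 320 FPKM against 227 to 239.7 FPKM, with groups apart, and did not pass (0.49, adjusted p = 0.0525).

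In the respiratory chain all 42 nuclear genes had a difference above 0, 20 had groups apart and 7 rose, but 0 rose under median-of-ratios scaling, where 10 had groups apart. COR1, a core subunit of the cytochrome bc1 complex, rose by 0.40 ± 0.07 (adjusted p = 0.0419) and STF1, a protein that binds ATP synthase, by 0.77 ± 0.14 (adjusted p = 0.0457). HAP4, the activation subunit of the factor that drives respiratory genes, had 129, 110.0 and 109 FPKM in the middle libraries, against 103, 94.5 and 93.5 FPKM in the high libraries. Its line rose by 0.44 ± 0.08 (adjusted p = 0.0494, and 0.0613 under median-of-ratios scaling). Of 70 mitochondrial ribosomal protein genes 7 rose and 29 had all middle libraries above all high libraries. Over all genes these shares were 2.95% and 18.6%. Under median-of-ratios scaling again none of the 70 rose and 15 had groups apart, beside 592 of all 6106 genes that were then above. The gluconeogenesis and glyoxylate list had 2 genes that rose of 28, beside the 2.95% of all genes. They were ODC1 (0.96), a mitochondrial carrier, and AGX1 (0.69), which missed the threshold under median-of-ratios scaling. Its defining genes were not called: PCK1 had 7.25 to 9.80 FPKM against 5.47 to 7.26 FPKM, FBP1 12.4 to 14.5 against 11.9 to 13.6 FPKM and ICL1 36.5 to 41.5 against 33.2 to 36.9 FPKM.

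Of 25 glycolysis genes 2 rose, the kinase genes HXK1 and GLK1 described above, and 5 of the enzymes from aldolase downwards fell: CDC19, ENO2, TDH2, FBA1 and TPI1. Over all genes 2.95% rose and 0.704% fell. Under median-of-ratios scaling 1 glycolysis gene rose and 6 fell, and GLK1 missed the threshold (adjusted p = 0.0534). ENO2, the enolase of fermenting cells, had 1488, 1685 and 1818 FPKM at middle glucose, against 1836, 2086 and 2319 FPKM at high glucose (line -0.62 ± 0.06, adjusted p = 0.0225). Pyruvate kinase CDC19, which overlaps another gene, changed by -0.70 ± 0.10 and aldolase FBA1 by -0.38. Pyruvate decarboxylase PDC1 had 2759.7, 3178 and 3537 FPKM against 3593, 3794 and 3965 FPKM and fell by 0.50 ± 0.09 (adjusted p = 0.0462, and 0.0559 under median-of-ratios scaling). ENO2 is 94.9% identical to ENO1 and TDH2 95.8% identical to TDH3, so their values are less certain than those of the other enzymes.

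**Figure D3:**
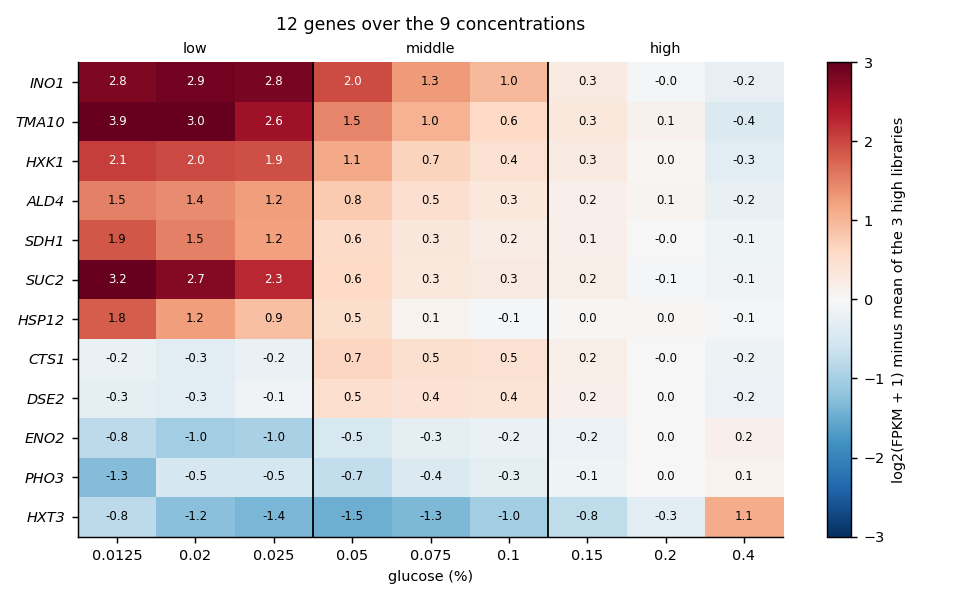
Level of 12 genes (rows) in the 9 YL388 libraries (columns, glucose in %), as log2(FPKM + 1) minus the mean of the 3 high libraries; red is higher and blue lower. INO1 reaches 1.96 at 0.05% glucose and HXT3 stands at 1.10 at 0.4%, while CTS1 and DSE2 are positive in the 3 middle libraries and negative in the 3 low libraries.

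Genes of ribosome production were lower by small amounts. Of 138 cytosolic ribosomal protein genes, 61 had all middle libraries below all high libraries and none above, and the median difference was -0.09. The same held for 88 of them under median-of-ratios scaling, and for 22, with 1 above, after quantile normalization. Over all 6106 genes, 289 were below as deposited, 603 under median-of-ratios scaling and 565 after quantile normalization. RPL35B fell by 0.31 ± 0.06 and RPL22A, which overlaps another gene, by 0.49 ± 0.08 (adjusted p = 0.0462 and 0.0356), and no other member was called. Of 99 ribosome biogenesis genes 25 had groups apart, all lower, and 98 had a difference below 0, but none was called on the line. NOP1, the rRNA methylase fibrillarin, had 796, 829 and 849 FPKM at middle glucose, against 852, 895 and 912 FPKM at high glucose. The lists for RNA polymerases I and III and for translation factors had no calls, with medians of -0.05 and -0.03. Few or no calls would fall in lists of this size at the shares over all genes (2.95% up, 0.704% down).

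Of 58 genes under general amino acid control 1 rose, the branched-chain aminotransferase gene BAT2 (0.64 ± 0.07, adjusted p = 0.0225), with a median difference of 0.00; that count is near the 2.95% of all genes that rose. Of 30 purine and one-carbon genes 3 fell, against 0.704% of all genes. SHM2, the cytosolic serine hydroxymethyltransferase, had 138, 160.3 and 175 FPKM in the middle libraries, against 189, 199.9 and 215 FPKM in the high libraries (line -0.62 ± 0.08, adjusted p = 0.0262). GCV2 of the glycine decarboxylase complex fell by 0.59 ± 0.10 and ADE17, an enzyme late in purine synthesis, by 0.46 ± 0.09. PHO3, an acid phosphatase, had 122, 150.4 and 165 FPKM against 186, 205 and 219.5 FPKM and fell by 0.84 ± 0.10 (adjusted p = 0.0262), while the phosphate transporter gene PHO84 had 20.7 to 22.5 and 18.9 to 21.5 FPKM.

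Several genes of cell separation had their highest values at middle glucose, with lower values on both sides. CTS1, the chitinase that parts mother and daughter, had 1268, 1134 and 1117 FPKM in the middle libraries, against 911, 802 and 721 FPKM in the high libraries. DSE2, a daughter-cell wall protein, had 582, 557 and 549 FPKM against 460.2, 419.7 and 366 FPKM. DSE1 had 230.4, 197 and 208 FPKM against 172, 141 and 144 FPKM. In all 3 genes the groups did not overlap, and they rose on the line by 0.87 ± 0.08, 0.73 ± 0.08 and 0.75 ± 0.13 (adjusted p = 0.0196, 0.0225 and 0.0442), while DSE1 lost its call under median-of-ratios scaling (adjusted p = 0.0542). CTS1 overlaps another gene in the files. SUN4, a cell wall protein of septation, also rose (0.50) and likewise missed the threshold under that scaling. CHS2, the chitin synthase of the septum made earlier in division, changed by -0.48 and was the 1 member of 14 that fell. In bulk RNA, more cells of a cell cycle phase and more RNA per cell cannot be told apart.

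In the 3 low libraries (0.0125 to 0.025% glucose) these 3 genes had lower values. CTS1 had 635 to 708 FPKM there, DSE2 325 to 387 FPKM and DSE1 123 to 139 FPKM, all below the middle libraries. Of all genes tested, 2.95% had every middle library above every high and every low library, and 0.59% had every middle library below them. Among the 14 cell separation genes there were 6 of the first kind, CTS1, DSE1, DSE2, SCW11, AMN1 and SUN4, and none of the second. These counts share the middle libraries on both sides. The endonuclease gene HO, also expressed once per cycle, followed the same course, with 131, 127 and 122 FPKM at middle, 111, 88.2 and 77.2 FPKM at high and 76.1 to 96.8 FPKM at low glucose.

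Of 26 genes of the G1 to S transition 2 rose on the line, against 2.95% of all genes. In this list, 14 had all middle libraries above all high libraries, none below, and the median difference was 0.20. Over all genes 18.6% were above and 4.73% below. Of the 14 genes, 10 were also above all low libraries, against 2.95% of all genes that were above both sides. Under median-of-ratios scaling 11 of the 26 were above and 3 below, beside 592 and 603 of all 6106 genes. The 2 that rose were PCL1, a G1 cyclin, and RFA2, a subunit of replication protein A (0.49 ± 0.08 and 0.39 ± 0.06, adjusted p = 0.0356 and 0.0296), and both missed the threshold under median-of-ratios scaling. CLN2, the main G1 cyclin of budding, had 77.8, 82.8 and 76.3 FPKM in the middle libraries, against 68.7, 55.2 and 57.8 FPKM in the high libraries, and 56.6 to 65.2 FPKM in the low libraries. Its groups were apart, but its line did not pass (adjusted p = 0.086). Of 10 histone genes 3 rose, HTA1 (0.47), HHF1 (0.43) and HTB2 (0.43), none of them under median-of-ratios scaling, and 5 had groups apart. HTA1 and HHF1 have copies of 94.1% and 97.4% identity.

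Of 18 genes of G2 and mitosis 1 fell on the line and none rose. In this list, 13 differences were below 0 and 5 above, 6 genes had all middle libraries below all high libraries, none above, and the median difference was -0.13. Over all genes 4.73% were below, 18.6% above and 0.704% fell on the line. HOF1, a protein of the division ring, had 29.7, 30.7 and 33.0 FPKM at middle glucose, against 34.9, 35.5 and 40.2 FPKM at high glucose, and fell by 0.43 ± 0.06 (adjusted p = 0.0299). SWI5, a factor that activates genes at mitotic exit, had 39.8 to 44.5 FPKM against 45.8 to 47.9 FPKM, with groups apart and no call. The mitotic cyclin gene CLB2 had 35.3, 36.3 and 41.5 FPKM against 39.5, 41.6 and 56.9 FPKM, with overlapping groups. Without the 0.15% library, 18 of the G1 to S genes were above and 1 below, and 9 of the G2 genes below, while 1876 and 477 of all genes were then above and below.

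**Figure D4:**
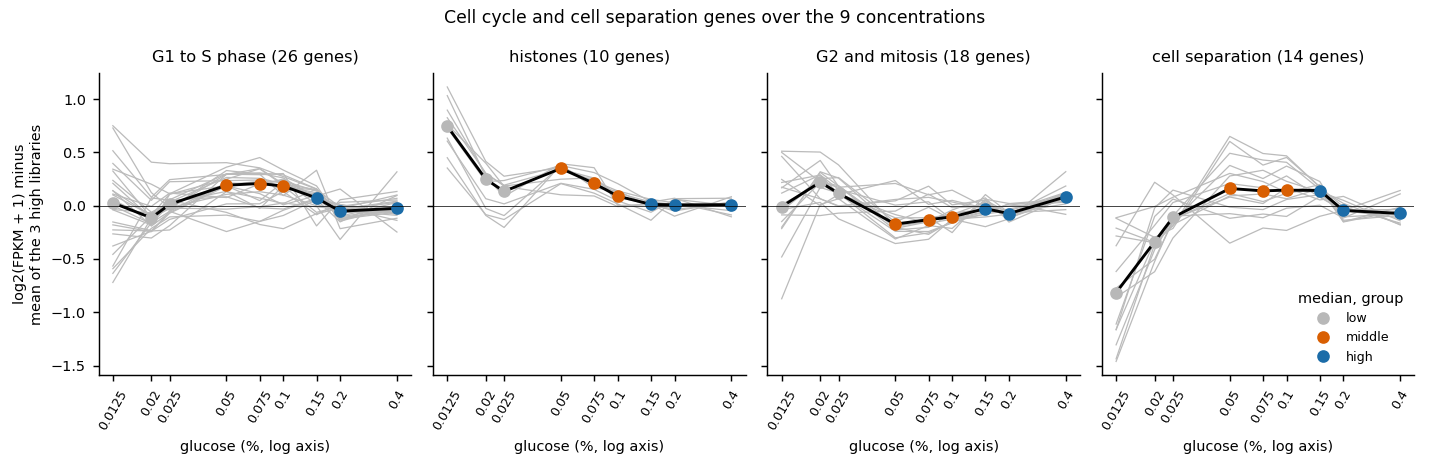
Levels of genes in 4 lists over the 9 YL388 libraries, as log2(FPKM + 1) minus the mean of the 3 high libraries, against glucose (log axis); grey lines are genes and points are list medians, in grey for low, orange for middle and blue for high glucose. The cell separation median is 0.14 to 0.16 in the middle libraries, 0.14 at 0.15%, -0.04 at 0.2% and -0.07 at 0.4% glucose, and -0.82 at 0.0125%, and the G1 to S median is 0.18 to 0.21 in the middle libraries.

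Among haploid mating genes, the pheromone receptor gene STE2 had 479, 502 and 526 FPKM in the middle libraries, against 575, 585 and 646 FPKM in the high libraries, and fell by 0.44 ± 0.05 (adjusted p = 0.0225). GPA1, the G protein subunit bound to it, fell by 0.32 ± 0.05 (adjusted p = 0.0405). All 7 a-specific markers, among them the very short gene MFA1, had differences below 0, with a median of -0.26. None of the 21 meiosis genes was called, which is near the share over all genes (2.95% up, 0.704% down).

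By the rule for naming genes, the largest moderated statistics of the group comparison were listed, none of which was called. YLR297W, an uncharacterized gene, had 38.0, 37.8 and 35.4 FPKM at middle glucose, against 27.9, 27.4 and 26.9 FPKM at high glucose. Its group difference was 0.42 ± 0.05 (adjusted p = 0.252), and this ranking favours genes with little spread within groups. MCD1, the cohesin subunit, had 64.9 to 69.4 FPKM against 53.9 to 54.9 FPKM, and PSA1, which makes GDP-mannose, 1746 to 1904 against 1466 to 1525 FPKM. On the lower side BUD20, a factor for export of the large ribosomal subunit, had 429, 438 and 449.5 FPKM against 521, 492 and 501 FPKM. Some genes under 150 bp showed larger differences, such as YOL038C-A (96 bp; 930.5, 1061 and 799 FPKM against 383, 446 and 200.2 FPKM; line 2.44 ± 0.34). Of values above 0, 92.7 to 94.6% lay above their own upper confidence bound for genes under 150 bp in the 6 libraries. The share was 45.3 to 51.8% over all genes and 12.4 to 17.5% for genes over 1500 bp. Differences of single genes under 150 bp were therefore not described further, but such genes remain in the counts and lists.

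The genes named from the line were chosen for a straight course over the 6 concentrations, so their gradual course is no result. A test of a step at the border beyond a common slope called no gene (0%, smallest adjusted p 0.8), with 340 genes at an unadjusted p under 0.05.

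The next step, low minus middle glucose, uses the same middle libraries and was larger over all genes, with a median absolute difference of 0.181 against 0.089. It is also somewhat wider than the first on the log2 glucose scale, and the differences below are not adjusted for that. For TMA10 the low minus middle difference was 2.13 beside 1.03 for middle minus high, for SUC2 2.34 beside 0.40 and for SIP18 3.67 beside 0.60. INO1 had nearly equal steps of 1.44 and 1.41, and HXT3 had 0.15 beside -1.28. The list medians were 1.11 beside 0.30 for the Msn2 and Msn4 targets, 0.92 beside 0.26 for the tricarboxylic acid cycle, -0.42 beside -0.09 for ribosome biogenesis and -0.69 beside 0.15 for cell separation. The test of the difference between the steps called no gene (0%, smallest adjusted p 0.0811, 831 of 6121 genes at an unadjusted p under 0.05). CTS1 was among the 3 genes at that smallest value.

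Motif letters in the windows from 500 to 201 bases upstream were counted on both strands. AGGGG stood in 65 of the 180 windows of genes that rose (36.1%), in 12 of the 43 of genes that fell (27.9%) and in 22.3% of all 6106 windows. The letters of Mig1, taken as NNGGGG with GC, CC, GT or CT in place of NN, stood in 33.9%, 11.6% and 16.5%. These overlap AGGGG in their run of G and are not independent of it. CGGANNA stood in 37.2%, 37.2% and 28.5%, CCAAT of the Hap complex in 47.8%, 37.2% and 46.8%, and CATGTG, added after INO1's values were seen, in 12.2%, 11.6% and 8.93%. GATGAG, of ribosome biogenesis promoters, stood in 14.4%, 6.98% and 16.2%, and AAAATTTT in 4.44%, 11.6% and 5.32%. These shares describe letters in a window and are not binding sites. Windows that reach into a neighbouring gene were kept, so the shares can include coding DNA.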

How the data were processed

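RNA of 6 steady-state cultures of yeast strain YL388 was sequenced, and the 3 low glucose libraries were used beside them. The deposited values are FPKM estimated by the authors with Cufflinks, per the file headers, each with 2 confidence bounds. TopHat, Cufflinks, DESeq2 and sacCer3 are named in the submitters' processing notes, without versions. The annotation and the handling of strand are not given here by any source used. Libraries are single cultures, so no p-value measures variation between repeated cultures. In the group comparison and the difference of steps, p-values measure the spread between neighbouring concentrations of a group. For the line and the step beyond it, they measure the scatter about the fitted course.

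Samples were grouped by the concentration in their titles. limma 3.58.1 (R 4.3.3, empirical Bayes with an intensity trend) was run on log2(FPKM + 1) over the 6106 genes averaging 1 FPKM or more in the 6 libraries. All adjusted p-values are from limma with Benjamini-Hochberg adjustment over all genes, two-sided, threshold 0.05. Group comparison, line over log2 glucose, step beyond the line and difference of steps were each fitted on the whole table. All but the line were checked on simulated data, so the line's calls have no such check. Genes and lists were chosen with earlier results of these data known. The 15 largest moderated statistics each way were taken with groups apart, above 0 in all 6, a mean of at least 10 FPKM and no overlap with another gene. HXT1 to HXT7, HXK1, HXK2, SUC2, MIG1, MSN2, MSN4, MTH1, STD1, SNF3, RGT2, HSP12, SIP18 and JEN1 were fixed names. No gene passed the group comparison, so list members were named from the line, after their values were seen.

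Depth was read from the width of the confidence bounds of genes over 1500 bp, since many values of shorter genes lie above their own upper bound, and covers counting error only. Of the 6692 identifiers, 6008 were matched to RefSeq by systematic name, 6000 with identical R64 coordinates, and 1321 (19.7%) overlap another gene. Coordinates are those of sacCer3 (R64), counted from 1, and gene spans are coding spans. Upstream windows were therefore read from 500 to 201 bases before the coding start, to keep away from the transcribed start of the gene itself. Windows that reach into a neighbouring gene were kept. Near-identical copies were sought with BLAST 2.17.0 at 90% identity over 80% of the length.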

Additional observations from a re-analysis of the deposited data

How the results depend on the processing

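Under the alternatives tried (pseudocounts of 0.1 and 10, no filter and a mean of at least 10 FPKM, median-of-ratios and quantile scaling, the centre of the confidence bounds, no intensity trend, overlapping genes left out, a spread shared by 9 libraries) the group comparison called 0 genes either way. The line in its place called 180 higher and 43 lower. Leaving out 1 library gave 0 to 2 genes higher and 0 to 2 lower, 0 to 1 for the step beyond the slope in either direction, and, for the difference of steps, 0 to 2 genes with a larger and 0 to 3 with a smaller second step. Without overlapping genes, 1 gene had a smaller second step. The line's counts were 147 to 246 up except for 55 with median-of-ratios scaling, 63 with quantile normalization and 7 without the trend, and 35 to 61 down except for 0 without the trend. Leaving out 1 library gave 0 to 88 up and 0 to 18 down. Of 127 named genes, RGT2 alone changed sign in the group comparison, to 0.011 without the 0.075% library and 0.017 without the 0.15% library, within a range of -0.11 to 0.017 over the 6 libraries left out in turn. The cause of these changes was not tested. No paired analysis was possible because the groups compared share no replicate numbers in their labels. With single cultures and a median absolute difference that equals the spread within groups, a gene without a call here is not shown to be the same in both groups.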

Other observations

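Among other genes that moved with the line, chosen after their values were seen, ARI1, an NADPH-dependent aldehyde reductase, had 39.9, 50.3 and 48.7 FPKM in the middle libraries, against 51.4, 61.7 and 85.3 FPKM in the high libraries, and fell by 0.99 ± 0.13 (limma adjusted p = 0.0276). OPT1, a transporter of glutathione and oligopeptides, had 16.7, 19.4 and 22.2 FPKM against 22.5, 24.4 and 27.8 FPKM and fell by 0.67 ± 0.10 (adjusted p = 0.0276). The middle and high groups of both genes did not overlap. HBN1, a nitroreductase-like protein, rose by 1.19 ± 0.19 (adjusted p = 0.0379), with 34.2, 26.7 and 27.6 FPKM against 21.8, 15.2 and 15.5 FPKM. Oxidative stress defence was split, with PRX1 (0.77), HYR1 (0.50), SOD2 (0.46) and GRX1 (0.44) up and AHP1 (-0.39) down among 25 genes, none of which passed under median-of-ratios scaling. On the values as deposited, 2.95% of all genes rose and 0.704% fell.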
